A study of Mus musculus with 12 samples.

Results

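The oxidative phosphorylation genes were taken from a table of normalized counts as the protein-coding genes whose symbols begin with Nduf and a subunit letter and number, Sdha to Sdhd, Uqcr, Cox4 to Cox8 with a letter, Atp5, or mt- followed by Nd, Co, Cyt or Atp. The rule found 96 of 38250 genes, 83 encoded in the nucleus and 13 in mitochondrial DNA, and no measured value entered it. The study asked how IKAROS, a zinc finger transcription factor encoded by Ikzf1, acts on genes that respond to NOTCH signaling in erythroid cells. Fetal livers of CD1 mouse embryos at e14.5, IKAROS wild type (IkWT) or homozygous for a deletion of the last translated exon of Ikzf1 (IkNull, described as lacking IKAROS protein in all tissues), were kept for 48 h with 2 U/mL erythropoietin on OP9 cells, a murine bone marrow stromal line, or on OP9-DL1 cells, the same line made to produce Delta-like 1, a ligand of NOTCH. Ter119+ erythroid cells were then isolated, and RNA enriched with oligo-dT beads was sequenced in 12 libraries, 3 for each of IkWT/OP9, IkWT/OP9-DL1, IkNull/OP9 and IkNull/OP9-DL1. The libraries are numbered 1, 3 and 4 in IkWT and 1, 2 and 3 in IkNull, and each number has a library on each stroma. Ter119 marks cells of the erythroid lineage from the erythroblast stage on. Erythropoietin and stroma of the OP9 line were present in all 4 groups.

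Oxidative phosphorylation passes electrons from NADH and succinate through complexes I to IV of the inner mitochondrial membrane to oxygen, and the proton gradient that builds up drives ATP synthase, complex V. Complex II is encoded wholly in the nucleus, while the other complexes combine nuclear subunits with a few core subunits translated inside the organelle from mitochondrial DNA. Erythroid cells need mitochondria for heme synthesis and clear them later, as reticulocytes, so the levels of both gene classes are of interest in these cells.

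The values are read counts per gene divided by a size factor for each library, called normalized counts here. The libraries held 19889576 to 31624477 reads counted in genes. Of 12 erythroid markers, among them Slc4a1, Alas2 and Hbb-b1, all were detected. Their sum held 14.54% to 17.23% of the normalized counts in IkWT libraries and 16.81% to 23.38% in IkNull libraries. Most single markers went the other way. In IkNull against IkWT cells, 8 of the 12 had log2 fold changes below 0 on each stroma. The medians were -0.40 on OP9 and -0.32 on OP9-DL1, and none of the 12 passed the test described below. Ikzf1 itself lay between 2424 and 2721 in IkWT and between 1721 and 2719 in IkNull libraries, which does not check the genotype, since reads outside the deleted exon are counted too. In a bulk sample, fewer cells of a type and less RNA per cell cannot be told apart. P-values below come from limma on log2(normalized count + 1), fitted to the 13769 genes whose mean normalized count reached 5. They were adjusted over all of these genes by the Benjamini-Hochberg method. They measure a spread shared by all 12 libraries, taken as independent, which the study describes as biological triplicates. Libraries of the same genotype and number on the 2 stromas correlated, however, at 0.58 to 0.83. With only the 2 groups compared in the fit, Cox6b2 alone of the oxidative phosphorylation genes was called between genotypes. That held on each stroma, beside 1146 and 1090 of all genes.

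Promoter sequences are shown for the members on which the results turn: Cox6b2 and Ndufs4, which were higher in IkNull cells, Ndufb10, which was lower on OP9-DL1, Cox6b1, the ubiquitous partner of Cox6b2, and Cox6a1, which of the members with an NRF1 motif had the highest level. Each runs from 250 bases before to 50 bases after the start of transcription on the gene's own strand, from RefSeq on GRCm38.p6, and all of these genes lie on the minus strand. Capitals mark the motifs GCGCA, any base and GCGC (NRF1), CCGGAAG (ETS factors such as GABPA) and AAGATGGCG (YY1), searched on both strands.
Cox6b2 (chr7:4753045-4753344): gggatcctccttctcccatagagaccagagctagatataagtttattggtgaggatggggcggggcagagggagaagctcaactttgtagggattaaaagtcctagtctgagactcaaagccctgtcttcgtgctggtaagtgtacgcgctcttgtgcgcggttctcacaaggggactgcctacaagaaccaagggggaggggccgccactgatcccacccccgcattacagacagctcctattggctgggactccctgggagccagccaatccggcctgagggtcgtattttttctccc
Cox6b1 (chr7:30626065-30626364): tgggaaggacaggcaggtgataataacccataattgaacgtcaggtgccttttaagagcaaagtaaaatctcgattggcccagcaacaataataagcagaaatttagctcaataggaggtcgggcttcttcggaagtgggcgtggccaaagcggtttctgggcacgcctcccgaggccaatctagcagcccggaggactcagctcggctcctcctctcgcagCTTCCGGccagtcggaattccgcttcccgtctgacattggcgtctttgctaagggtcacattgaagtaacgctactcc
Ndufs4 (chr13:114388045-114388344): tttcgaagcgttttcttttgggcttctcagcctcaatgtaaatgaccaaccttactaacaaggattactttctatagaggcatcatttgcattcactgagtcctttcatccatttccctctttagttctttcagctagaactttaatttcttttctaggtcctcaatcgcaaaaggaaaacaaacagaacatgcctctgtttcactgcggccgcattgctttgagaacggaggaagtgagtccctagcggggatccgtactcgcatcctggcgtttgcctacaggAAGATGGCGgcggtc
Ndufb10 (chr17:24724374-24724673): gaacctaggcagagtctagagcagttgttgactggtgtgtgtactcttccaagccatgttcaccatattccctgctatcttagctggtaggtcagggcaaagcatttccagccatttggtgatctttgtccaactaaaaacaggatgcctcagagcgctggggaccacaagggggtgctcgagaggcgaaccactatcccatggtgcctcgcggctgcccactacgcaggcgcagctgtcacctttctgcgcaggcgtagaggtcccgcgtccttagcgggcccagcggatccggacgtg
Cox6a1 (chr5:115348909-115349208): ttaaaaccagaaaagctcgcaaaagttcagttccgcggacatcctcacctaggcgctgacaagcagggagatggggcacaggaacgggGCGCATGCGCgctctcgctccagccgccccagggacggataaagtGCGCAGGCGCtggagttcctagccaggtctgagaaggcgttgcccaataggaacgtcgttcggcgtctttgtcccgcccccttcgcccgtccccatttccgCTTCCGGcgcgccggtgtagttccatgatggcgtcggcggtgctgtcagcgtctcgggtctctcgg

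Of the 83 nuclear members, 69 matched RefSeq promoters, 75 in all. The NRF1 motif was found in 24% of these 75 promoters and in 4.60% of all 32851 promoters of the same length. The ETS motif was in 21.3% against 8.86%, and the YY1 motif in 12% against 1.40%. The core that IKAROS recognizes, GGGAA, was in 65.3% of members' promoters and 62.7% of all, the RBPJ motif TGGGAA, which contains that core, in 20% against 25.6%, and the GATA motif AGATAA in 8% against 11.2%. Cox6b2 held none of these 6 motifs in this window. Cox6b1 held an ETS motif and 2 GGGAA cores, 1 of them within an RBPJ motif, Ndufs4 a YY1 motif and 1 GGGAA core, and Ndufb10 1 GGGAA core alone. A match describes the letters and does not mark a bound site.

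Between genotypes, few oxidative phosphorylation genes were called, and 1 of these, Cox6b2, differed several-fold. Of the 90 members whose mean reached 5 (78 nuclear and 12 mitochondrial-encoded), 2 were higher and 0 lower in IkNull/OP9 than in IkWT/OP9 at an adjusted p under 0.05 in limma, where 7.00% of all genes tested were higher and 3.78% lower. In IkNull/OP9-DL1 against IkWT/OP9-DL1, 2 members were higher and 1 lower, with 9.96% and 7.25% of all genes. With the study's added limit of 0.8 on the log2 fold change, the 2 higher members remained on each stroma, beside 6.69% and 9.41% of all genes, and no member was lower by that limit, beside 2.83% and 4.65% of all genes. An unadjusted p under 0.05 was reached by 6 and 5 of the 90 members, and by 28.9% and 34.5% of all genes. The 2 comparisons share no libraries but are not independent, since libraries of the same genotype and number on the 2 stromas correlated at 0.58 to 0.83. The 6 members not tested were Cox8b, Cox8c, Cox7b2 and mt-Nd4l, all at 0 in the 12 libraries, Atp5l-ps1, with reads in 1 library, and Cox7a1, between 2.01 and 12.1 normalized counts. A count of 0 allows up to 3 reads in a library, and that limit covers counting error only.

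The medians of both classes lay close to that of all genes. The median log2 fold change of the 78 nuclear members was -0.10 in the OP9 comparison and -0.12 in the OP9-DL1 comparison, and that of the 12 mitochondrial-encoded members was -0.22 and -0.23, beside 0.0037 and 0.028 over all genes tested. No mitochondrial-encoded member passed the test on either stroma. Nuclear members ranged from -0.77 to 2.92 with OP9 stroma and from -0.98 to 2.71 with OP9-DL1 stroma. Mitochondrial-encoded members ranged from -0.46 to 0.21 and from -0.47 to 0.23. By complex, the nuclear medians on OP9 were -0.15 for the 35 subunits of complex I, -0.14 for the 4 of complex II, -0.19 for the 8 of complex III, 0.20 for the 14 of complex IV and -0.10 for the 15 of complex V. On OP9-DL1 they were -0.17, -0.27, -0.12, 0.22 and -0.10 in the same order, so the complex IV median was the one above 0 on both stromas. That sign depended on the scaling of the libraries. With all libraries rescaled to the same total, the median over all genes fell to -0.21 and -0.26, that of the nuclear members to -0.32 and -0.41, and that of complex IV to -0.020 and -0.078, below 0. In that scaling 34.8% and 26.7% of the genes called were higher, against 65% and 57.9% as deposited, and 45.6% and 37.8% when nuclear genes other than globins were brought to the same total.

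**Figure D1:**
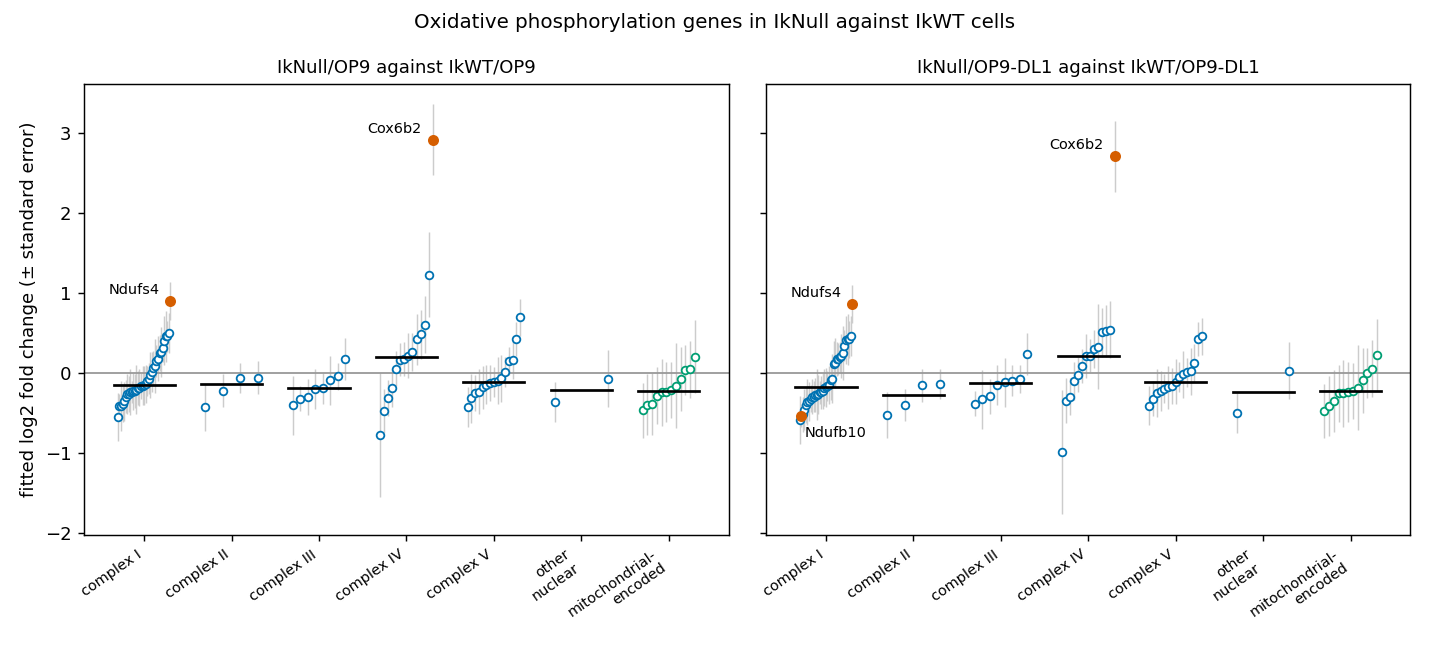
Fitted log2 fold change (vertical axis, with its standard error) of each tested member in IkNull against IkWT cells on OP9 (left) and OP9-DL1 (right), by complex for nuclear members and together for mitochondrial-encoded members; filled points have an adjusted p under 0.05 in limma and black lines are medians. Cox6b2 stands at 2.92 and 2.71, Ndufs4 at 0.90 and 0.87, and Ndufb10, filled on the right only, at -0.53 there. Of the open points, Ndufa4l2 stands at 1.24 on OP9 and Cox6a2 at -0.77 and -0.98, and most others lie around 0.

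IkNull libraries lay further from each other than IkWT libraries did. The summed normalized count of the nuclear members was 153817, 134166 and 139280 in IkWT/OP9 and 158023, 138364 and 143413 in IkWT/OP9-DL1 libraries. It was 188481, 153644 and 110733 in IkNull/OP9 and 194724, 152075 and 117506 in IkNull/OP9-DL1 libraries. The IkNull values lay on both sides of the IkWT values, and the highest was 1.76 times the lowest in IkNull but 1.18 times in IkWT.

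The mitochondrial-encoded sum spread further. It was 302244, 305229 and 360394 in IkWT/OP9 and 308549, 295602 and 356105 in IkWT/OP9-DL1 libraries. It was 528573, 274627 and 221729 in IkNull/OP9 and 547541, 261850 and 224384 in IkNull/OP9-DL1 libraries. IkNull replicate 1 was thus above every IkWT library and replicates 2 and 3 below every one, on both stromas, with a ratio of highest to lowest of 2.47 in IkNull and 1.22 in IkWT. The mitochondrial-encoded members held 1.02% to 1.72% of the normalized counts in IkWT and 0.87% to 1.90% in IkNull libraries. The ratio of the mitochondrial-encoded to the nuclear sum was 1.95 to 2.59 in IkWT libraries, 2.80 and 2.81 in IkNull replicate 1, and 1.72 to 2.00 in IkNull replicates 2 and 3.

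The same order held gene by gene. IkNull replicate 1 was the highest of its genotype on both stromas for 64 of 78 nuclear and 12 of 12 mitochondrial-encoded members, as for 30.9% of all genes tested. IkNull replicate 3 was the lowest on both for 51 nuclear and 11 mitochondrial-encoded members, as for 17.2% of all genes. Among genes with a mean of at least 50, the standard deviation between libraries of a group had a median of 0.30 on the log2 scale for 77 nuclear members, 0.51 for 12 mitochondrial-encoded members and 0.33 for all 9961 genes.

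**Figure D2:**
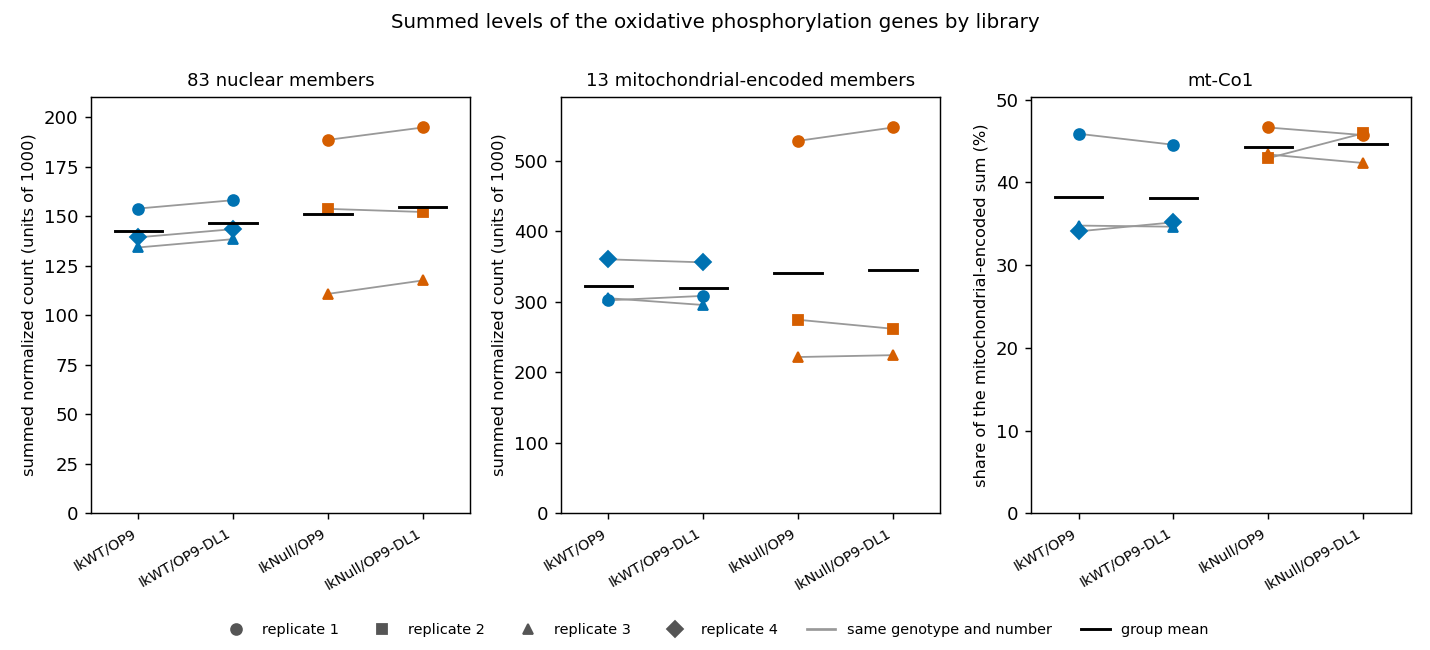
Summed normalized count, in units of 1000, of the 83 nuclear members (left) and the 13 mitochondrial-encoded members (centre), and the percent of the mitochondrial-encoded sum held by mt-Co1 (right), for each library by group; symbols are replicate numbers, gray lines join the libraries of 1 genotype and number, and black bars are group means. IkNull replicate 1 lies highest and replicate 3 lowest in both sums, and mt-Co1 holds 34.1% to 35.2% in IkWT replicates 3 and 4 against 42.4% to 46.7% in the other libraries.

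The calls among members depended on these libraries. Without IkNull replicate 1 (both stromas), 14 members were called in the OP9 comparison, beside 21.2% of all genes, and 12 of them, all nuclear, were lower. In the OP9-DL1 comparison 21 members were called, beside 30.8% of all genes, and 17 nuclear and 2 mitochondrial-encoded members, mt-Cytb and mt-Nd4, were lower. Of all genes, 1256 and 2001 were lower in these fits. The members lower on both stromas were Ndufa4, Ndufa9, Ndufb4, Ndufb10, Ndufs1, Ndufv1, Uqcr11, Uqcrc1, Uqcrfs1 and Atp5g3, with limma log2 fold changes from -0.42 to -0.84 on OP9. Without IkNull replicate 3, 7 nuclear members were higher with OP9 stroma and 9 with OP9-DL1 stroma, beside 4.21% and 5.60% of all genes. These were Cox6b2, Ndufs4, Cox6a1, Cox6c, Cox7b, Ndufa1 and Ndufa13 in both comparisons, with Atp5e and Ndufb6 added on OP9-DL1. Without IkNull replicate 2, Cox6b2 was the 1 member called on either stroma, beside 4.14% and 5.09% of all genes.

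Cox6b2 encodes the testis-expressed form of subunit VIb of cytochrome c oxidase, complex IV, whose ubiquitous form is encoded by Cox6b1. Its normalized count was 1347, 913 and 1010 in IkWT/OP9 and 1565, 1273 and 1271 in IkWT/OP9-DL1 libraries. It was 12947, 9717 and 4302 in IkNull/OP9 and 14407, 11152 and 4452 in IkNull/OP9-DL1 libraries. Every IkNull library was above every IkWT library, with the least in replicate 3 on both stromas. The level was 7.58-fold higher in IkNull/OP9 (log2 fold change 2.92 ± 0.45 SE, adjusted p = 0.0021, limma) and 6.56-fold higher in IkNull/OP9-DL1 (2.71 ± 0.45, adjusted p = 0.0027).

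The partner gene gave no such difference. Cox6b1 lay between 1970 and 2340 in the 6 IkWT libraries and between 1839 and 2942 in the 6 IkNull libraries, with log2 fold changes of 0.17 and 0.22 and adjusted p = 0.61 and 0.48 in limma. The groups overlapped. Per kilobase of exon, the mean level of Cox6b2 was 984 and 1236 in IkWT cells on OP9 and OP9-DL1 against 3045 and 3086 for Cox6b1. In IkNull cells it was 8113 and 9029 for Cox6b2 against 3488 and 3642 for Cox6b1, so the order of the 2 forms turned between genotypes. The best local alignment of a single transcript of each gene spans 97 bases at 78.4% identity. Over all protein-coding transcripts of the 2 genes, the longest shared run is 14 bases.

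Cox6b2 lies on chromosome 7 (GRCm38, 4751792 to 4753094, minus strand), and the next gene downstream, Kmt5c, which encodes a histone H4 lysine methyltransferase and is listed under its older symbol Suv420h2, ends 4277 bases away on the plus strand (4740115 to 4747514). On the other side, Fam71e2 lies 131 bases upstream on the same strand as Cox6b2 (4753226 to 4771302) and reaches into the promoter window shown. A part of reads running on from Fam71e2 in the Cox6b2 level was not tested. Kmt5c, like Cox6b2, was higher in IkNull cells. It lay between 1751 and 2646 in IkWT and between 3703 and 8958 in IkNull libraries, without overlap, with log2 fold changes of 1.39 and 1.31 for the stromas in turn and adjusted p = 0.014 and 0.015 in limma. The call on OP9 was lost without IkNull/OP9 replicate 2 or IkWT/OP9 replicate 4, that on OP9-DL1 without IkWT/OP9-DL1 replicate 4, and both without IkNull replicate 2 or IkWT replicate 3 or 4 on both stromas (adjusted p from 0.051 to 0.089). The kit does not mark the strand of a read, so reads running on from one of the 2 convergent genes could not be told from reads of the other strand, and a part of that in these levels was not tested.

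**Figure D3:**
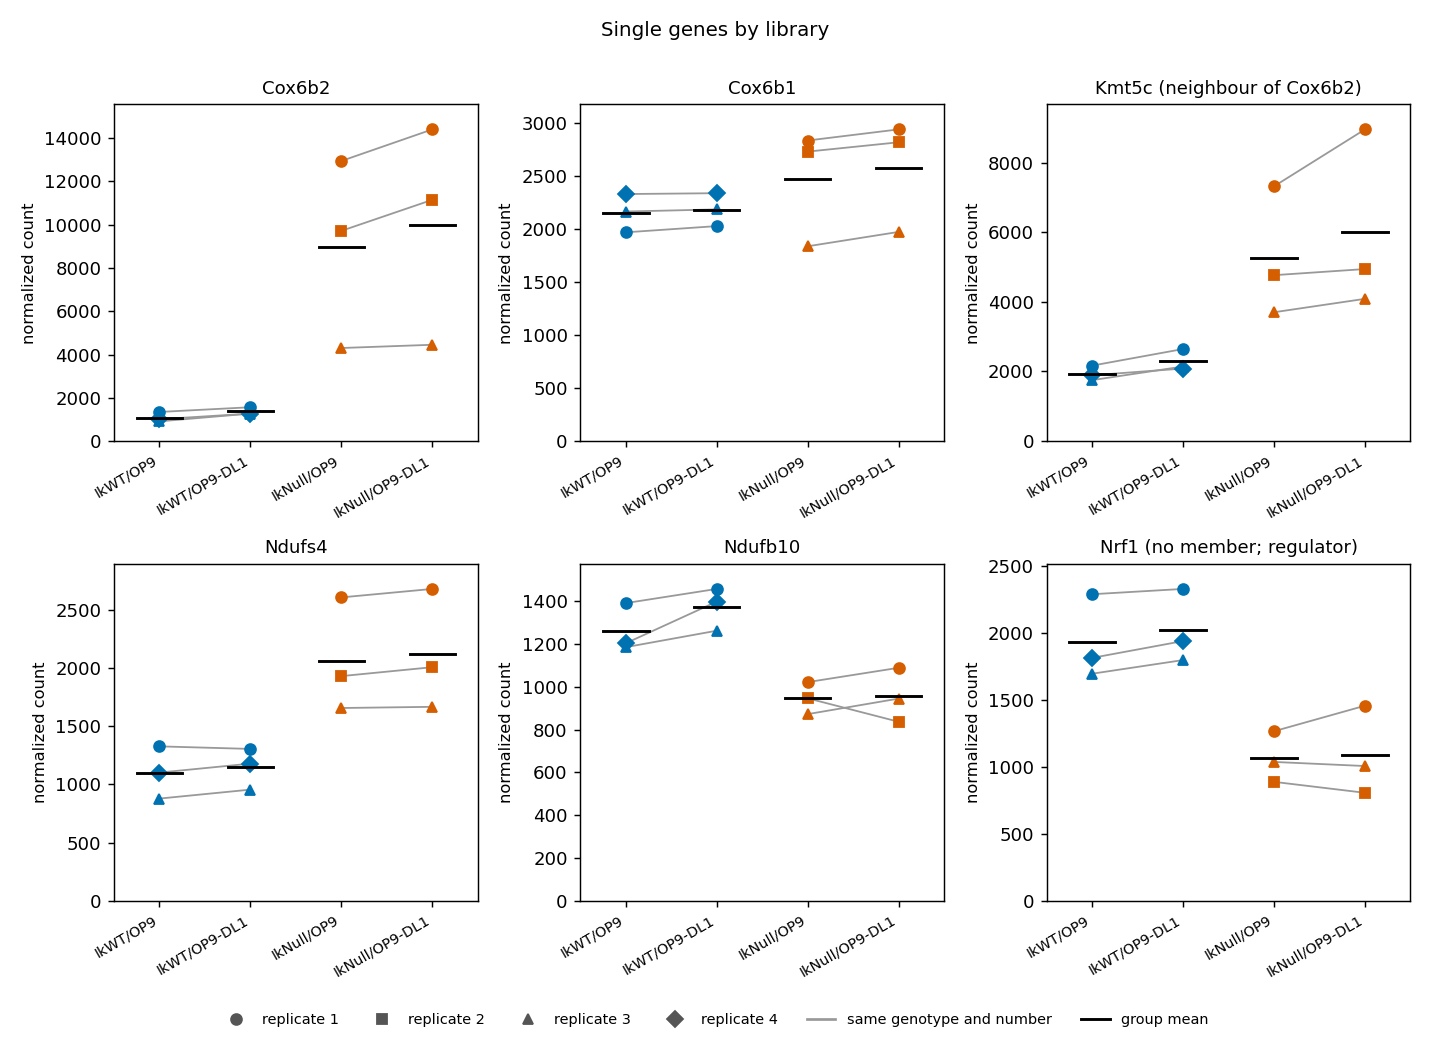
Normalized count (vertical axis, starting at 0) of Cox6b2, Cox6b1, Kmt5c, Ndufs4, Ndufb10 and the regulator Nrf1 in each library, by group; symbols are replicate numbers, gray lines join the libraries of 1 genotype and number, and black bars are group means. IkNull libraries lie above all IkWT libraries for Cox6b2, Kmt5c and Ndufs4 and below them for Ndufb10 and Nrf1, and the genotypes overlap for Cox6b1.

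Markers of other cell types moved with genotype beside these genes. Over all genes tested, 7.00% were called higher and 3.78% lower on OP9, and 9.96% and 7.25% on OP9-DL1. Of 10 megakaryocyte and platelet markers, 7 were called higher with OP9 stroma and 8 with OP9-DL1 stroma, and their summed level was 1119 to 2040 in IkWT and 4326 to 11645 in IkNull libraries. Of 6 tested endothelial markers, 5 were higher on each stroma, with sums of 142 to 181 and of 1269 to 2058. Sums of 14 stromal markers were 2907 to 4899 and 5035 to 8494, with 0 and 1 of the 13 tested called higher. Of 12 tested macrophage markers, 2 were called higher and 1 lower in the OP9 comparison, against 4 and 1 in the OP9-DL1 comparison, and their sums, 1992 to 11273 in IkWT and 7166 to 24650 in IkNull, overlapped. Neutrophil marker sums overlapped as well, at 6402 to 50630 and 23002 to 87823. The part of these cells in the levels of Cox6b2 and the other members was not tested.

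Complex I takes electrons from NADH. Ndufs4, an accessory subunit next to its NADH-oxidizing end, was 1327, 878 and 1102 in IkWT/OP9 and 1305, 955 and 1178 in IkWT/OP9-DL1 libraries. It was 2608, 1931 and 1657 in IkNull/OP9 and 2681, 2008 and 1667 in IkNull/OP9-DL1 libraries. All IkNull libraries were above all IkWT libraries, a 1.87-fold and 1.83-fold difference (log2 fold change 0.90 ± 0.24 SE with adjusted p = 0.034, and 0.87 ± 0.24 with adjusted p = 0.030, limma). Ndufs4 was the 1 member of complex I called higher. With a single library of its comparison left out, the call was lost on OP9 without IkNull replicate 1 or 2 or IkWT replicate 3 or 4, and on OP9-DL1 without those or IkWT replicate 1. It was also lost on OP9 without IkWT/OP9-DL1 replicate 4, and on both stromas without IkNull replicate 2 or IkWT replicate 3 or 4 altogether, with adjusted p from 0.051 to 0.14 among these fits. With only the 2 groups compared in the fit, adjusted p was 0.058 and 0.060.

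Ndufb10, an accessory subunit of the membrane arm, went the other way. It was 1391, 1185 and 1203 in IkWT/OP9 and 1458, 1262 and 1398 in IkWT/OP9-DL1 libraries, and 1022, 946 and 872 in IkNull/OP9 and 1089, 836 and 945 in IkNull/OP9-DL1 libraries. The genotypes did not overlap on either stroma. The log2 fold change was -0.53 ± 0.15 (SE) with adjusted p = 0.035 on OP9-DL1 and -0.41 ± 0.15 with adjusted p = 0.098 on OP9 in limma. The call on OP9-DL1 did not hold without a filter on low values (adjusted p = 0.053). Nor did it hold with only the 2 groups compared in the fit (adjusted p = 0.12). It was also lost without IkNull/OP9-DL1 replicate 2 or 3, any one of the IkWT/OP9-DL1 libraries, IkNull/OP9 replicate 2 or IkWT/OP9 replicate 4, and without both libraries of any number other than IkNull replicate 1, with adjusted p from 0.051 to 0.16.

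The other complex I subunits did not pass the test on either stroma. Ndufs1, the largest core subunit and an iron-sulfur protein, had log2 fold changes of -0.38 and -0.51 for OP9 and OP9-DL1 (adjusted p = 0.28 and 0.13, limma), and on OP9-DL1 its groups did not overlap, at 2468 to 2575 in IkWT and 1366 to 2445 in IkNull libraries. Ndufv3, an accessory subunit of the NADH-binding part, had log2 fold changes of 0.46 and 0.35 (adjusted p = 0.14 and 0.23). Ndufb11, the nuclear complex I member with the highest level per kilobase of exon at 3796, had 0.19 and 0.22. Over all members tested, groups did not overlap for 5 higher and 3 lower on OP9 and for 3 higher and 5 lower on OP9-DL1, where 17.1% and 16.7%, and 17.1% and 16.9%, of all genes did so.

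Complex II, succinate dehydrogenase, joins the tricarboxylic acid cycle to electron transport. Its 4 subunits had log2 fold changes below 0 on both stromas, and none passed the test. The flavoprotein Sdha had -0.22 and -0.39, the iron-sulfur protein Sdhb -0.06 and -0.13, and the membrane anchors Sdhc and Sdhd -0.42 and -0.52, and -0.05 and -0.15, with adjusted p from 0.19 to 0.89 in limma. Sdha lay between 2893 and 3394 in IkWT libraries, at 3392 and 3248 in IkNull replicate 1, and between 2079 and 2545 in the other IkNull libraries.

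Complex III passes electrons from ubiquinol to cytochrome c. None of its 8 nuclear subunits passed the test. Uqcrfs1, the Rieske iron-sulfur protein, was 1918, 1859 and 1893 in IkWT/OP9 and 1898, 1935 and 1955 in IkWT/OP9-DL1 libraries, and 1767, 1529 and 1297 in IkNull/OP9 and 1738, 1338 and 1411 in IkNull/OP9-DL1 libraries. The genotypes did not overlap, with log2 fold changes of -0.31 and -0.38 and adjusted p = 0.20 and 0.11 in limma. Uqcrc1, a core subunit, had -0.30 and -0.29, Uqcr11, a small subunit, -0.40 and -0.32, and Uqcr10, another small subunit, 0.18 and 0.24, the one complex III value above 0 on both stromas.

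In complex IV, 10 of 14 tested nuclear members had log2 fold changes above 0 on OP9 and 9 on OP9-DL1, and Cox6b2 was the one called. Cox6a1, the ubiquitous form of subunit VIa and the member with the highest level per kilobase among nuclear complex IV genes (6006), was 3638, 2941 and 2689 in IkWT/OP9 and 4126, 3113 and 3151 in IkWT/OP9-DL1 libraries. It was 6538, 5602 and 2794 in IkNull/OP9 and 6958, 6018 and 3028 in IkNull/OP9-DL1 libraries. IkNull replicates 1 and 2 were above every IkWT library and replicate 3 was among them, and the log2 fold changes of 0.61 and 0.55 did not pass the test (adjusted p = 0.27 and 0.29, limma). For Cox6c and Cox7b, IkNull replicates 1 and 2 were likewise above every IkWT library, while replicate 3 was below every one, and their log2 fold changes were 0.49 and 0.51, and 0.43 and 0.53.

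The forms of complex IV subunits that are typical of muscle or testis, other than Cox6b2, were at or near 0. Cox6a2, the striated muscle form of VIa, lay between 1.90 and 21.7 normalized counts in IkWT libraries and between 2.01 and 6.03 in IkNull libraries. The highest IkWT values were both from replicate 1. Cox7a1, the striated muscle form of VIIa, was at most 12.1, and the muscle form Cox8b and the testis forms Cox7b2 and Cox8c were at 0, while their ubiquitous partners Cox7a2, Cox8a and Cox7b lay between 1613 and 4843. Cox7a2l, which takes part in joining complexes III and IV, had 0.06 and -0.01. Ndufa4, now placed in complex IV, lay between 1417 and 1589 in IkWT libraries, with -0.47 and -0.34, and its hypoxia-induced paralog Ndufa4l2 had 1.24 and 0.34 at levels of 25.7 to 193 normalized counts (adjusted p = 0.15 and 0.68, limma).

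Complex V had no member called among 15. Atp5b, the catalytic beta subunit and the nuclear member with the highest level per kilobase of exon (6139), had log2 fold changes of -0.06 and -0.01. Atp5g1, Atp5g2 and Atp5g3 encode the same mature c subunit of the membrane ring, so reads from the shared stretch may be split between them. Atp5g2 was 113, 174 and 142 in IkWT/OP9 and 110, 178 and 163 in IkWT/OP9-DL1 libraries, and 232, 222 and 234 in IkNull/OP9 and 173, 210 and 232 in IkNull/OP9-DL1 libraries. It did not overlap between genotypes on OP9 but did on OP9-DL1, with 0.70 (adjusted p = 0.074, limma) and 0.46 (0.18). Atp5g3, at a higher level of 1140 to 2453, had -0.42 and -0.40, and Atp5g1 had -0.31 and -0.25. Atp5e, the epsilon subunit, had 0.43 and 0.44 (adjusted p = 0.21 and 0.17).

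The 12 detected mitochondrial-encoded genes reached far higher levels per kilobase of exon than the nuclear members, with a median over genes of 13996 against 690. The highest was mt-Co1, the catalytic core of complex IV, at 89509, followed by mt-Atp6 at 64948, mt-Co3 at 57186, mt-Co2 at 49320 and mt-Atp8 at 34258. The cytochrome b gene mt-Cytb, of complex III, stood at 15364. The complex I genes ran from mt-Nd1 at 12628, mt-Nd4 at 11672, mt-Nd2 at 6767, mt-Nd5 at 5334 and mt-Nd3 at 4581 down to mt-Nd6 at 124, the one member transcribed from the other strand. The open reading frames of mt-Atp8 and mt-Atp6 share 43 bases, those of mt-Nd4l and mt-Nd4 share 7, and mt-Nd5 and mt-Nd6 share 14 on opposite strands. Levels of such pairs are uncertain, and the value of 0 for mt-Nd4l says only that no read was assigned to it. The part of the enrichment with oligo-dT beads in the levels of mitochondrial-encoded genes was not tested.

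Between genotypes, 9 of the 12 mitochondrial-encoded members had log2 fold changes below 0 on each stroma. The lowest was mt-Cytb. It was 15832, 20857 and 24191 in IkWT/OP9 and 16503, 19658 and 23197 in IkWT/OP9-DL1 libraries, and 21923, 13697 and 10205 in IkNull/OP9 and 22327, 11865 and 10665 in IkNull/OP9-DL1 libraries. The genotypes overlapped, with log2 fold changes of -0.46 ± 0.34 (SE) and -0.47 ± 0.34 (adjusted p = 0.39 and 0.35, limma).

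The highest was mt-Co1, with 0.21 and 0.23 (adjusted p = 0.79 and 0.75, limma). It was 138699, 106189 and 122867 in IkWT/OP9 and 137500, 102437 and 125287 in IkWT/OP9-DL1 libraries, and 246588, 117943 and 96208 in IkNull/OP9 and 250419, 120305 and 95049 in IkNull/OP9-DL1 libraries. IkNull replicate 1 was above the IkWT range, and the other IkNull libraries lay within or below it. The makeup of the mitochondrial-encoded sum parted IkWT replicates 3 and 4 from all others, with mt-Co1 at 34.1% to 35.2% there, 45.9% and 44.6% in IkWT replicate 1 and 42.4% to 46.7% in IkNull libraries. Of the other mitochondrial-encoded genes, mt-Nd2 was 4695 and 4752 in IkWT replicate 1, 7911 to 10375 in IkWT replicates 3 and 4, and 4991 to 8339 in IkNull libraries. For 9 of the 12 genes, IkWT replicate 1 was the lowest of its genotype on both stromas, as for 36.0% of all genes tested.

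**Figure D4:**
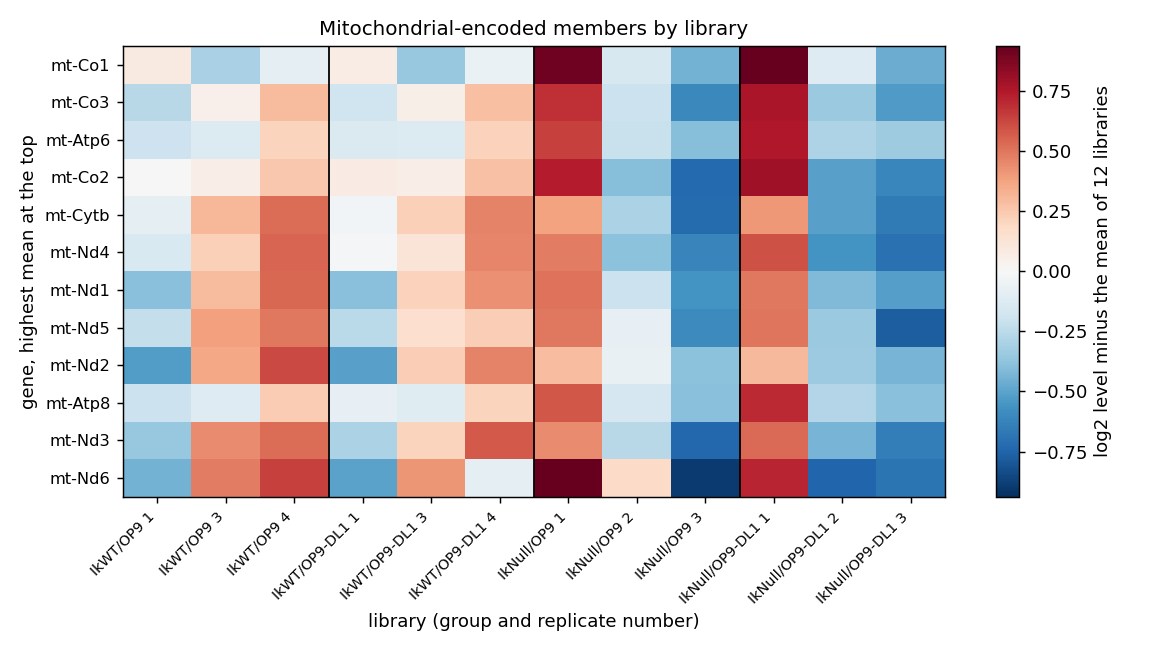
Level of the 12 detected mitochondrial-encoded genes in each library as log2(normalized count + 1) minus the gene's mean over the 12 libraries (color), with genes ordered by mean level and libraries by group and replicate number. IkNull replicate 1 is high and replicate 3 low in each gene, and libraries of the same genotype and number look alike on the 2 stromas.

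With all libraries taken as independent, no difference between the stromas was called among the members. None of the 90 passed the test in IkWT/OP9-DL1 against IkWT/OP9, where 0.00726% of all genes were called higher, in IkNull/OP9-DL1 against IkNull/OP9, where 0.0145% were, or in the interaction of genotype and stroma, where 0% were. At an unadjusted p under 0.05 there were 0 members in each, against 1.39%, 1.58% and 0.428% of all genes in limma. DESeq2 and edgeR on the recovered reads called 0 members as well. Within a genotype and number, the log2 difference of the summed levels, OP9-DL1 minus OP9, ran from -0.01 to 0.09 for nuclear members and from -0.07 to 0.05 for mitochondrial-encoded members. In IkWT cells 66 of 78 nuclear members had log2 fold changes above 0, with a median of 0.05, where the median of all genes was 0.01.

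With libraries paired by genotype and number, 2 members were higher in IkWT/OP9-DL1 than in IkWT/OP9, beside 0.763% of all genes called higher in that fit, and 0 were lower, beside 2.24%. In IkNull cells the paired fit called 0 members, beside 0.784% of all genes higher and 0.574% lower. Ndufa4l2 was 105, 57.0 and 25.7 in IkWT/OP9 libraries and 193, 98.9 and 62.5 in their IkWT/OP9-DL1 partners, and it rose in each of the 3 pairs (log2 fold change 0.97, paired adjusted p = 0.0080, limma). Cox6b2, with the values above, rose in each pair as well (0.34, paired adjusted p = 0.012). In IkNull cells the differences per pair were 0.28, -0.34 and 0.26 for Ndufa4l2 and 0.15, 0.20 and 0.05 for Cox6b2. The interaction was not called for either gene with or without pairing. Markers of other cell types moved with the stroma in the paired fit as well. Of 13 tested stromal markers, 7 were higher and 1 lower in IkWT/OP9-DL1 than in IkWT/OP9 and 6 higher and 1 lower in the IkNull comparison, and their sums overlapped, at 2907 to 4604 in IkWT/OP9 and 3002 to 4899 in IkWT/OP9-DL1 libraries. Of 9 neutrophil markers, 6 were lower in IkWT and 7 in IkNull cells, and of 12 macrophage markers 1 was higher and 3 lower in IkWT cells. No hepatocyte marker was called, though all 8 had log2 fold changes below 0 in IkWT cells, with a median of -0.87. None of 12 erythroid markers was called in either genotype. The part of these cells in the values of Ndufa4l2 and Cox6b2 was not tested. Ndufa4l2 also shares 32 bases with Shmt2 on the opposite strand, which had a mean of 4857 normalized counts. Since the kit does not mark strands, a part of Shmt2 reads in the Ndufa4l2 values was not tested either.

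Genes that act around the complexes were read from lists. Over all genes tested, 7.00% were called higher and 3.78% lower on OP9, and 9.96% and 7.25% on OP9-DL1. Of 17 tested subunits and electron carriers outside the symbol rule, such as Cox4i1, Cyc1 and Cycs, 0 were called on OP9 and 1 lower on OP9-DL1, Coq5, a methyltransferase of ubiquinone synthesis (log2 fold change -0.71, adjusted p = 0.017, limma), whose call was lost without IkNull/OP9-DL1 replicate 2 or IkWT/OP9-DL1 replicate 1 or 4. Of 38 assembly factors, 0 were called on either stroma, 31 had log2 fold changes below 0 on each, and the medians were -0.22 and -0.26. Of 25 genes for the transcription, RNA handling and copying of mitochondrial DNA, 0 were called on OP9 and 2 lower on OP9-DL1, Tfb1m, a methyltransferase of the mitochondrial small ribosomal RNA (-0.87, adjusted p = 0.022), and Grsf1, which binds mitochondrial RNA (-0.59, adjusted p = 0.034). Both of these calls were lost without IkNull/OP9-DL1 replicate 2 or 3 or any one of the IkWT/OP9-DL1 libraries. With a library or a number left out, adjusted p reached 0.098 for Coq5, 0.11 for Tfb1m and 0.14 for Grsf1.

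Among 9 tested nuclear regulators of mitochondrial genes, 1 was called lower on each stroma, beside 3.78% and 7.25% of all genes. Nrf1, nuclear respiratory factor 1, which activates many respiratory chain genes, was 2290, 1696 and 1815 in IkWT/OP9 and 2330, 1798 and 1940 in IkWT/OP9-DL1 libraries. It was 1266, 888 and 1037 in IkNull/OP9 and 1457, 806 and 1006 in IkNull/OP9-DL1 libraries. Every IkNull library was below every IkWT library (log2 fold change -0.86 with adjusted p = 0.035, and -0.93 with adjusted p = 0.021, limma). Without replicate 2 or 3 of IkNull or replicate 1 or 4 of IkWT on the stroma compared, and on OP9 also without IkWT replicate 3, the call was lost, with adjusted p up to 0.15. The 17 tested members with the NRF1 motif in a promoter had median log2 fold changes of -0.15 on OP9 and -0.17 on OP9-DL1. The 49 without it had -0.06 and -0.08. Such gaps were not particular to NRF1. For YY1 the medians were -0.20 and -0.18 against -0.06 and -0.05. For GATA they were -0.31 and -0.29 against -0.07 and -0.08, and for GGGAA -0.10 and -0.12 against -0.02 and -0.02. RBPJ gave -0.11 and -0.08 against -0.06 and -0.09. The ETS motif went the other way, with 0.02 and -0.007 against -0.14 and -0.15. A part of Nrf1 in these medians was not tested.

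Of 16 tricarboxylic acid cycle enzymes, 1 was lower on each stroma, beside 3.78% and 7.25% of all genes. This was citrate synthase (Cs), at 4092 to 4989 in IkWT and 2817 to 3432 in IkNull libraries. Its log2 fold changes were -0.53 (adjusted p = 0.042, limma) and -0.57 (adjusted p = 0.024). The calls for Cs were lost without any one of the 6 libraries compared on OP9, and on OP9-DL1 without IkNull replicate 2 or 3 or IkWT replicate 3 or 4, and both were lost with nuclear genes other than globins brought to the same total (adjusted p = 0.12 and 0.065). Of 11 tested genes for the clearance of mitochondria, 0 were called on either stroma. Bnip3l, the receptor for mitochondrial clearance in reticulocytes, had 0.70 and 0.69 (adjusted p = 0.28 and 0.26), and Bnip3 had 1.09 and 0.96 (0.13 and 0.15).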

How the data were processed

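RNA from Ter119+ cells was sequenced in 12 libraries, 3 per group. The authors aligned HiSeq2000 reads, untrimmed, to GRCm38/mm10 with TopHat and counted them by gene with htseq-count. The submitters' processing notes list DESeq2 1.0.19, HTSeq 0.5.3, TopHat2 2.0.9 and CASAVA 1.8, and the sources used here give neither the annotation release nor the strand setting. The deposited signal values are read counts, each divided by the authors by its library's size factor, which is a median over genes of the ratio to the geometric mean. The paper describes a sort of the cells and the labels a filtration. Other deposited tables hold the authors' group means, log2 fold changes, standard errors, p-values and adjusted p-values, and were not used. A marker gene of the erythroid list is not reported here.

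Members and lists were chosen with earlier results of these data known. Tests used limma 3.58.1 (R 4.3.3) with lmFit, contrasts and trended eBayes. The fit took log2 of the normalized count plus 1 in every library, with a mean for each of the 4 groups, and kept genes whose mean normalized count reached 5. A fold change is on that scale. Calls are an adjusted p under 0.05, alone or with a log2 fold change of 0.8 or more in size. With 3 libraries against 3, no exact permutation p (two-sided) can fall under 0.1. The text names all mitochondrial-encoded members, members called by the study's rule, the 3 nuclear members per complex and genotype comparison with the smallest p among those with a mean of 50 or more, the highest per kilobase of exon in each complex, tissue-restricted forms and their partners, and up to 3 genes per list. Other members were named after their values were seen. Exon lengths and positions are from GENCODE vM21 (union of exons).

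Libraries of the same genotype and number correlated at 0.58 to 0.83 across genes after removal of group means (6 pairs; other numbers -0.70 to 0.20), so numbers were taken as pairs within a genotype. In each library, 100% of genes had a value within 0.01 of a whole multiple of that library's step, and edgeR 4.0.16 and DESeq2 1.42.0 were run on these recovered reads as alternatives. In both IkNull replicate 3 libraries the step lies near 1 (1.00 and 1.01), which leaves the recovery less sure there. Other alternatives were pseudocounts of 0.5 and 5, a minimum mean of 20 or none, other scalings, only the 2 groups compared, the replicate block, and leaving out each library or each genotype and number. The fits were tested on simulated data.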

Additional observations from a re-analysis of the deposited data

Results flagged for a closer look

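Of 61 genes examined, no oxidative phosphorylation gene moved one way with OP9-DL1 in every IkWT pair and the other way in every IkNull pair. Of the surrounding genes, 2 did. How many of all genes did so was not counted, so these 2 are not told apart from chance. Gabpa, an ETS factor that acts on respiratory chain genes, had a mean log2 difference, OP9-DL1 minus OP9, of 0.096 in IkWT and -0.071 in IkNull. Polg2, the accessory subunit of mitochondrial DNA polymerase, had -0.29 and 0.23. Neither passed the test of the interaction of genotype and stroma (adjusted p = 1 for both in limma).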

How the results depend on the processing

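Cox6b2 kept its direction and its call in each alternative run on both stromas, with log2 fold changes of 2.59 to 3.38 on OP9 and of 2.37 to 3.22 on OP9-DL1 when a library or a genotype and number was left out. None of the genes called between genotypes that the text names (Cox6b2, Kmt5c, Ndufs4, Ndufb10, Nrf1, Cs, Coq5, Tfb1m and Grsf1) changed direction in any alternative. Turns were also counted among the members named for a call, the smallest p or the highest level per kilobase of exon. Of those not called, 8 turned in each comparison. Among them were Ndufb11, Uqcr10, mt-Atp6 and mt-Co1, which were below 0 on both stromas with libraries rescaled to the same total. Turns among the other named members were not counted. In the OP9 genotype comparison the 1484 genes called became 3889 with the replicate block and 2612 with DESeq2, and in the OP9-DL1 comparison the 2370 became 4717 with the replicate block and 1090 with only the 2 groups compared. Numbers 1 and 3 alone are shared between genotypes. Across genotypes, libraries of the same stroma and number correlated at 0.20 to 0.48 and those of other numbers at -0.43 to 0.23, and with 2 shared numbers they were not taken as pairs. With the block, 3 nuclear members were lower on OP9, namely Sdhc, Ndufb4 and Ndufb10 (adjusted p = 0.026, 0.033 and 0.028, limma). On OP9-DL1 4 were lower, these 3 and Atp5sl (0.0099, 0.022, 0.0079 and 0.045), while Atp5g2 was called higher on OP9 (0.014). Of the 13769 genes tested, 1656 were lower and 2233 higher on OP9 in that fit, and 2073 were lower on OP9-DL1. With only the 2 groups compared, 1 nuclear member was higher on each stroma and 0 were lower on OP9-DL1, and the calls of Nrf1, Coq5, Tfb1m and Grsf1 on OP9-DL1 and of Cs on both stromas were lost. DESeq2 called 1 nuclear member lower on OP9, beside 982 of all genes. In the OP9-DL1 comparison, the 1 nuclear member called lower became 0 without a filter on low values and 7 with libraries rescaled to the same total (median of nuclear members -0.41). It became 2 with nuclear genes other than globins brought to the same total. Of all genes, 762 of 21579, 2085 of 13769 and 1447 of 13769 were lower in these fits in turn. Between stromas in IkWT cells, the 1 gene called became 2 with a pseudocount of 0.5, 0 with only the 2 groups compared, 17 with DESeq2 and 414 with the block, which called 2 nuclear members higher. In IkNull cells the 2 genes called became 187 with the block and 8 with DESeq2. With a library or a genotype and number left out, genes called ran from 458 to 2913 in the OP9 and from 701 to 4244 in the OP9-DL1 genotype comparison and from 0 to 3 between stromas in IkWT cells. Nuclear members called higher then ran from 1 to 7 and from 1 to 9, those called lower from 0 to 12 and from 0 to 17, and mitochondrial-encoded members lower on OP9-DL1 from 0 to 2. The cause of these shifts was not tested. Depth limits members near 0, where a count of 0 allows up to 3 reads in a library.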
